A study of Mus musculus with 20 samples.

Results

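The liver makes bile acids from cholesterol, couples them to taurine, exports them into bile and takes them back up from portal blood. The 10 genes described here carry out or control these steps: the synthesis enzymes Cyp7a1, Cyp8b1, Cyp27a1 and Cyp7b1, the nuclear receptors Nr1h4 and Nr0b2, the conjugating enzymes Slc27a5 and Baat, and the transporters Slc10a1 and Abcb11. They were selected by gene symbol for their place in the pathway, with earlier results of these data known, and all 10 were found among the 45306 genes of the table. Liver RNA was sequenced separately for each of 20 C57BL/6 mice, which formed 4 groups of 5. The Control and CE groups were wild type (WT) for Sirt2, which encodes an NAD-dependent deacetylase, and the Sirt2-/- and Sirt2-/-/CE groups carried a knockout of it. The CE (cold exposure) and Sirt2-/-/CE mice had been placed at 4 °C for 3 h a day over 3 weeks, and the Control and Sirt2-/- mice were housed at 24 °C. The knockout was made by injecting fertilized eggs with ribonucleoproteins directed at exons 5 to 7, so it affects the whole animal and not the liver alone. The mice were 5 weeks old when assigned to the groups.

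Bile acid synthesis runs along a classical route, which starts with the 7α-hydroxylation of cholesterol by Cyp7a1, and an alternative route, which starts in mitochondria with Cyp27a1 and continues with Cyp7b1. Cyp8b1 adds the 12α-hydroxyl group and so sets the share of cholic acid in the pool. Bile acids bind the receptor FXR, the product of Nr1h4, which activates Nr0b2 (SHP) and the export pump gene Abcb11. SHP in turn lowers transcription of Cyp7a1 and Cyp8b1, partly through the receptor LRH-1 (Nr5a2), so that the pathway is held in check by its own product. Transcription of Cyp7a1 also follows the time of day and of feeding, with the clock output factor Dbp among its activators.

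Libraries held 35499796 to 53917339 counts, and the Control libraries were the deepest of the 4 groups by median. Sirt2 itself lay at 40.2 to 56.2 CPM (counts scaled to library size and by the trimmed mean of M values) in the WT mice, apart from every knockout mouse at 16.9 to 27.5 CPM, and 52.0% of the Control mean remained in Sirt2-/-. The counts cover the whole gene and not the deleted exons alone. The hepatocyte markers Alb, Apoa1, Ttr, Apoc3 and Cps1 were high in all 20 libraries, and the ileal genes Fgf15 and Fabp6 were at 0 in each, while Slc10a2, which cholangiocytes also express, was present. Summed, the hepatocyte markers, mostly Alb, had medians of 103300 CPM in Control, 98510 in CE, 83540 in Sirt2-/- and 92860 in Sirt2-/-/CE. The ranges overlapped, and the part of this sum in the results below was not tested. All 20 libraries had the 4 Y-linked genes above 2 CPM and Xist below 1 CPM. A clock score, the mean log2 level of 5 clock output genes minus that of 3 genes of the opposite phase, was 4.61 to 6.64 in Control, -1.25 to 5.69 in CE, -3.21 to 5.44 in Sirt2-/- and -1.42 to 4.14 in Sirt2-/-/CE. Its median was 6.4 in Control, 3.66 in CE, 3.85 in Sirt2-/- and 3.18 in Sirt2-/-/CE, so score and group were partly aligned. A fit with the score as a covariate cannot fully separate them. The score was below 0 in 4 mice, namely CE replicate 9, Sirt2-/- replicates 14 and 15, and Sirt2-/-/CE replicate 19, and several results below are also given without them. Control replicate 3 held the lowest level of 4 of the 10 genes over all mice, and values without it are given in the same way.

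The 250 bases before the start sites of Nr0b2, Cyp8b1 and Abcb11 are shown because the textbook circuit above acts on these genes through LRH-1 and FXR. They come from RefSeq on GRCm38.p6, whose promoter table matched 6 of the 10 genes, and are written 5′ to 3′ on the strand of the gene. Capitals mark matches to CAAGGNCA, the element bound by LRH-1, in Nr0b2 (chr4:133553126-133553375, forward strand) and Cyp8b1 (chr9:121916306-121916555, reverse strand), and to GGNCANTGNCC, an inverted repeat of receptor half-sites 1 base apart of the kind bound by FXR, in Abcb11 (chr2:69342617-69342866, reverse strand).
Nr0b2: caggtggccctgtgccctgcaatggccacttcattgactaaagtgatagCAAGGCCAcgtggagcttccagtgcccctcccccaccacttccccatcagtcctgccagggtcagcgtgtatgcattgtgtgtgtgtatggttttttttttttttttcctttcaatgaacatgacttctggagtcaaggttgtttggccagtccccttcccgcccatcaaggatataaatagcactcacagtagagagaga
Cyp8b1: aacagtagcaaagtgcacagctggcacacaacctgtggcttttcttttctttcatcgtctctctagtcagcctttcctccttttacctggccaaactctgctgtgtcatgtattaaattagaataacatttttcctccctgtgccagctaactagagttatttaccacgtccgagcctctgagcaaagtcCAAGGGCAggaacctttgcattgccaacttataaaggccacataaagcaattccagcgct
Abcb11: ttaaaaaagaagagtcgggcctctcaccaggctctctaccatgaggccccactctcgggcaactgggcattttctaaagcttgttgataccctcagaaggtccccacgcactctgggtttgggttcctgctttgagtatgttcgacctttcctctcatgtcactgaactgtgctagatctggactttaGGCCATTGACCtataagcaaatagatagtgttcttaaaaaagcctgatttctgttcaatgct
Counted from the first transcribed base as 0, the match in Nr0b2 (CAAGGCCA) spans -201 to -194, that in Cyp8b1 (CAAGGGCA) spans -60 to -53, and that in Abcb11 (GGCCATTGACC) spans -62 to -52. Both strands were searched, in windows that also held 50 bases after the start. Of all 32851 promoters in the RefSeq table, 6.71% held CAAGGNCA and 0.676% held GGNCANTGNCC. A half-site, AGGTCA, was present in 16.3% of promoters; its match in Abcb11 lies on the other strand at -56 to -51 and overlaps the inverted repeat. The E-box CACGTG (7.15% of promoters) was found at -195 to -190 in Nr0b2, where it overlaps the LRH-1 element, and the D-box TTATGNAA (3.38%) at -60 to -53 in Cyp27a1. Further matches lay in Nr1h4 (a half-site) and at both RefSeq start sites of Slc10a1 (a half-site and a D-box at one, a TATAAA box at the other). A TATAAA box (13.6%) lay at -28 to -23 in Nr0b2 and at -31 to -26 in Cyp8b1. These matches describe letters in the sequence and were not tested for binding.

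Per length, the sodium-dependent uptake transporter Slc10a1 and the bile acid-CoA ligase Slc27a5 were the most abundant of the genes, with means over 20 mice of 315 and 314 FPKM (fragments scaled to gene length and library size). Cyp27a1 followed at 207 FPKM, Baat at 114, Abcb11 at 82.1, Cyp8b1 at 76.5 and Cyp7b1 at 75.6. The regulators were lower, with 48.4 FPKM for Nr1h4 and 21.8 FPKM for Nr0b2, and Cyp7a1, which catalyses the rate-limiting step, stood between them at 31.7 FPKM. The lowest of these means, that of Nr0b2, still lay at the 85.8th percentile of the 15616 genes tested.

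The genes differed widely in their spread within groups of like-treated mice. The SD between mice of a group on the log2 CPM scale was 1.24 for Cyp7a1, 1.19 for Cyp8b1 and 1.14 for Cyp7b1. These 3 hydroxylases lay at the 99.1st, 99.1st and 99.0th percentile of the genes of similar level, whose median SD was 0.28. Abcb11 (0.64) and Nr0b2 (0.61) were at the 89.8th and 91.9th percentile of their own level. Nr1h4, at 0.29, was close to the median of its level. The other 4 genes, Cyp27a1, Slc27a5, Slc10a1 and Baat, varied by 0.15 to 0.19 and lay between the 6.82nd and 15.9th percentile. From the lowest to the highest of the 20 mice, the level spanned 38.4-fold for Cyp8b1, 21.3-fold for Cyp7a1 and 17.4-fold for Cyp7b1, against 1.53-fold for Baat. The spread between mice is the error against which all comparisons that follow were made.

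**Figure D1:**
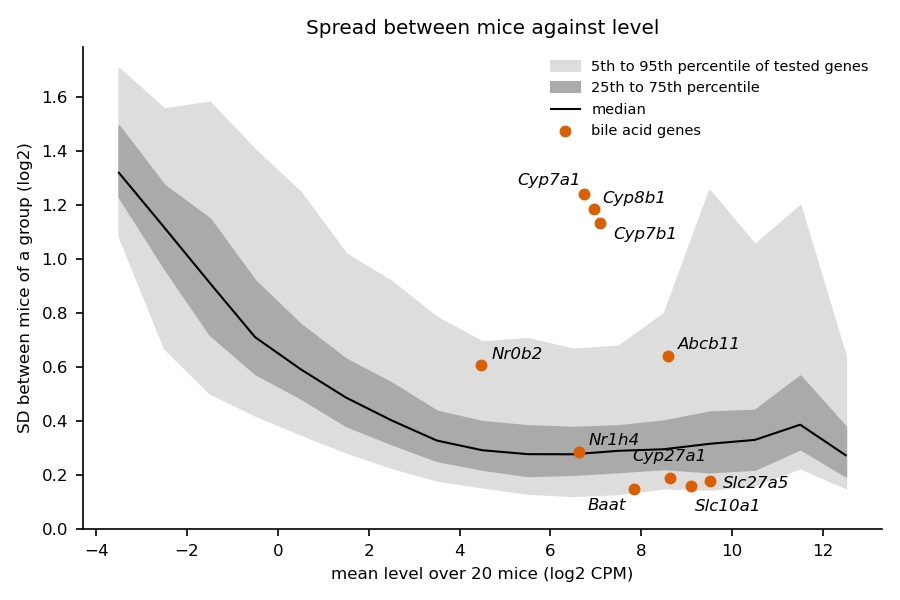
SD between mice of a group (log2 CPM) against the mean level over the 20 mice (log2 CPM) for the 10 bile acid genes (orange points), with the median (line), the 25th to 75th and the 5th to 95th percentile (bands) of the 15616 tested genes by level. Cyp7a1, Cyp8b1 and Cyp7b1 lie far above the upper band, while Cyp27a1, Slc10a1, Slc27a5 and Baat lie below the median line.

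In the main edgeR test no bile acid gene passed the adjusted threshold, and the largest fold difference in that fit was that of Nr0b2 in the knockout. The mean of the repressor gene Nr0b2 in Sirt2-/- was 2.40 times that in Control, and that of the ligase gene Slc27a5 was 76.8% of it. In CE, the uptake transporter gene Slc10a1 was at 79.4%, the receptor gene Nr1h4 at 75.1% and the conjugating gene Baat at 119% of the Control mean. In the main test, edgeR's quasi-likelihood test with Benjamini-Hochberg adjustment over all genes, 0 of the 10 genes had an adjusted p under 0.05 in any of the 5 comparisons, which each have 5 mice a group. The p-values measure the spread between the mice of this study. Over all genes tested, the share called was 0.0064% in CE against Control, 0.89% in Sirt2-/- against Control, 0% in Sirt2-/-/CE against Sirt2-/-, 0.0128% in Sirt2-/-/CE against CE and 0% for the interaction of genotype and cold. At an unadjusted p under 0.05 there were 3 of the 10 genes in CE against Control (10.7% of all genes; 5.5% higher and 5.22% lower), 3 in Sirt2-/- against Control (14.9%; 8.14% higher and 6.78% lower), 0 in Sirt2-/-/CE against Sirt2-/- (7.25%; 3.96% higher and 3.29% lower), 0 in Sirt2-/-/CE against CE (6.09%; 3.89% higher and 2.2% lower) and 1 for the interaction (8.34%; 4.73% higher and 3.61% lower). In each of the first 2 comparisons, 1 of the 3 genes was higher and 2 were lower. DESeq2 called 1 of the 10, Nr0b2, in Sirt2-/- against Control, where it called 3.89% of all genes. It called 0 of the 10 in CE against Control (1.08% of all genes), Sirt2-/-/CE against Sirt2-/- (0.0448%), Sirt2-/-/CE against CE (0.199%) and the interaction (0.263%). Of the 10, limma voom with quality weights called 1 in CE against Control (3.46% of all genes) and 3 in Sirt2-/- against Control (5.8%), and edgeR with scaling by library size only called 1 in the latter (2.68%). The median log2 fold change of the 10 genes was 0.17 in CE against Control and -0.052 in Sirt2-/- against Control, where the median of all genes was -0.0079 and 0.017. It was -0.11 in Sirt2-/-/CE against Sirt2-/- (all genes, 0.0060), -0.13 in Sirt2-/-/CE against CE (all genes, 0.017) and -0.026 for the interaction (all genes, 0.0016). Single mice moved these medians: without Control replicate 3 that of CE against Control was 0.0076, that of Sirt2-/- against Control -0.185 and that of the interaction 0.19. Without 1 mouse they ranged from 0.0076 to 0.22 in CE against Control, from -0.185 to 0.017 in Sirt2-/- against Control, from -0.14 to -0.066 in Sirt2-/-/CE against Sirt2-/-, from -0.18 to -0.086 in Sirt2-/-/CE against CE and from -0.21 to 0.19 for the interaction, so the medians of Sirt2-/- against Control and of the interaction had no fixed sign. The median of Sirt2-/- against Control was also 0.083 with library size only and 0.18 on log2 FPKM. Both CE and Sirt2-/- were compared with the same 5 Control mice, so these 2 comparisons are not independent. When the group means of each gene were put in order, the ranges of neighbouring groups overlapped in 30 of 30 cases, and in 28 of them the gap was smaller than the larger SD of the pair. For single comparisons on CPM, 1 of the 10 genes lay without overlap in Sirt2-/- against Control, where 3.61% of all genes did, and 0 of the 10 in CE against Control (3.04% of all genes; 1.75% higher and 1.28% lower), Sirt2-/-/CE against Sirt2-/- (0.743%) and Sirt2-/-/CE against CE (1.22%).

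**Figure D2:**
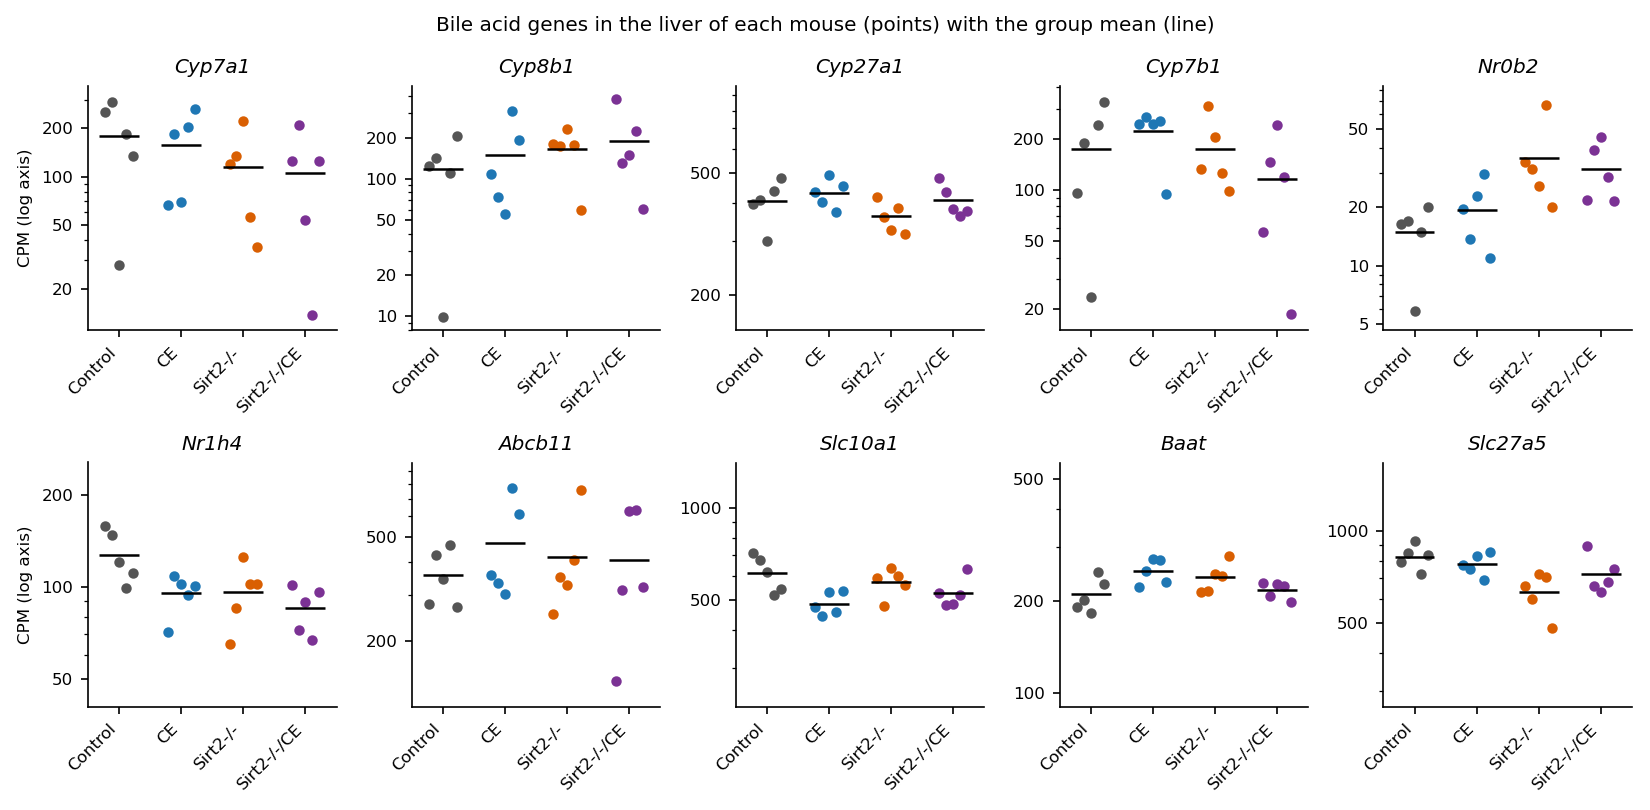
Level of each of the 10 bile acid genes in the liver of each mouse (points, CPM on a log axis) with the group mean (line), for 5 mice each of Control, CE, Sirt2-/- and Sirt2-/-/CE. All pairs of groups overlap except that the 5 Sirt2-/- mice lie below the 5 Control mice for Slc27a5 and the 5 Sirt2-/-/CE mice lie above the 5 Control mice for Nr0b2, which is also higher in most Sirt2-/- mice than in any Control mouse. Sirt2-/-/CE against Control is not among the 5 comparisons, and its share of all genes without overlap was not computed.

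Cyp7a1 (ENSMUSG00000028240, chr4:6265612-6275633, reverse strand) encodes cholesterol 7α-hydroxylase, the first enzyme of the classical route. In replicates 1 to 5, the Control mice had 252, 293, 28.0, 185 and 134 CPM, and CE replicates 6 to 10 had 66.5, 185, 69.2, 202 and 265 CPM. Sirt2-/- replicates 11 to 15 had 120.5, 134, 223, 56.0 and 36.2 CPM, and Sirt2-/-/CE replicates 16 to 20 had 125, 210.2, 53.4, 13.8 and 124 CPM. Low mice occurred in every group, and the ranges overlapped in all 4. The mean was 178.5 ± 104.1 CPM in Control, 158 ± 87.2 in CE, 114 ± 73.9 in Sirt2-/- and 105 ± 75.5 in Sirt2-/-/CE (SD, n = 5 each). The log2 fold change was -0.65 ± 0.63 (SE; 95% interval -1.96 to 0.67; edgeR adjusted p = 0.683) in Sirt2-/- against Control and -0.18 ± 0.63 (-1.49 to 1.13; edgeR adjusted p = 0.965) in CE against Control. With the clock score, which was partly aligned with group, as a covariate the former was -0.12 and the latter changed sign to 0.50. Without 1 mouse the latter ranged from -0.46 to 0.073, so the direction for cold was not fixed. In Sirt2-/- against Control the log2 fold change was -0.16 without the 4 mice of low clock score and -0.93 without Control replicate 3.

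Cyp8b1 (ENSMUSG00000050445, chr9:121914356-121916305, reverse strand, a single exon) encodes the sterol 12α-hydroxylase. The Control mice had 125, 143, 9.92, 111 and 207 CPM, and the CE mice had 109, 73.7, 55.9, 315 and 192 CPM. The Sirt2-/- mice had 181, 173, 233, 176.5 and 59.3 CPM, and the Sirt2-/-/CE mice had 380.5, 131, 149, 226 and 61.0 CPM. Control replicate 3 was far below every other mouse, the next lowest having 55.9 CPM, and the 4 groups overlapped. The group means ran from 119 ± 71.3 CPM in Control through 149 ± 106.4 in CE and 164.5 ± 63.7 in Sirt2-/- to 189 ± 121.8 in Sirt2-/-/CE (SD, n = 5 each), with each step smaller than the SD. In Sirt2-/- against Control the log2 fold change was 0.46 ± 0.59 (SE; 95% interval -0.77 to 1.69; edgeR adjusted p = 0.773) and in CE against Control it was 0.32 ± 0.59 (-0.91 to 1.55; edgeR adjusted p = 0.914). The former, without Control replicate 3, was 0.16 (edgeR adjusted p = 0.947).

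Cyp27a1 (ENSMUSG00000026170, chr1:74713574-74737892, forward strand) encodes the mitochondrial sterol 27-hydroxylase, and Cyp7b1 (ENSMUSG00000039519, chr3:18071950-18243338, reverse strand) the oxysterol 7α-hydroxylase that follows it in the alternative route. Cyp27a1 was the steadiest of these 4 hydroxylases, at 301 to 491.5 CPM over the 20 mice, with group means of 361.5 ± 41.8 CPM in Sirt2-/-, 406 ± 67.0 in Control, 408 ± 49.8 in Sirt2-/-/CE and 432 ± 45.3 in CE (SD, n = 5 each). Its 95% intervals bound the log2 fold change to between -0.45 and 0.11 for Sirt2-/- against Control and between -0.19 and 0.37 for CE against Control. Cyp7b1 was its opposite. The Control mice had 95.4, 189, 23.4, 239.8 and 326 CPM, and the CE mice had 243, 267, 244.5, 254 and 94.6 CPM. The Sirt2-/- mice had 132, 311, 204.5, 125 and 98.2 CPM, and the Sirt2-/-/CE mice had 56.6, 146, 239, 119 and 18.7 CPM. Of the CE mice 4 lay within 243 to 267 CPM, and 4 of the 5 Sirt2-/-/CE mice lay below the Control mean of 175 CPM. In the edgeR fit, Cyp7b1 had the largest log2 fold change of the 10 genes in Sirt2-/-/CE against CE, -0.93 ± 0.58 (SE; 95% interval -2.14 to 0.28; edgeR adjusted p = 0.920), with mean levels of 116 ± 85.2 and 220.4 ± 70.9 CPM. It was -0.66 without Sirt2-/-/CE replicate 20, and under voom Cyp7a1 was farther from 0 in this comparison, at -1.53 (adjusted p = 0.555).

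Nr1h4 (ENSMUSG00000047638, chr10:89454234-89533585, reverse strand) encodes FXR, the receptor for bile acids. In Control the mice had 158, 147, 120.4, 98.9 and 111 CPM, and in CE they had 71.3, 109, 102, 94.2 and 101 CPM. In Sirt2-/- they had 65.4, 85.3, 125, 103 and 102 CPM, and the Sirt2-/-/CE mice had 102, 72.2, 89.2, 67.1 and 96.3 CPM. The Control mice reached the highest levels, but each other group overlapped them. Its log2 fold change from Control was -0.41 ± 0.18 in CE (SE; 95% interval -0.78 to -0.044; edgeR unadjusted p = 0.030, adjusted p = 0.4095) and -0.40 ± 0.18 in Sirt2-/- (-0.77 to -0.033; edgeR unadjusted p = 0.034, adjusted p = 0.284), so neither passed the adjusted threshold. All 5 CE and all 5 Sirt2-/- mice lay below the Control mean of 127 CPM. The limma voom method with quality weights gave -0.66 with an adjusted p of 0.0221 for Sirt2-/- against Control, while log2 FPKM gave -0.26 (adjusted p = 0.418).

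Nr0b2 (ENSMUSG00000037583, chr4:133553376-133556536, forward strand) encodes SHP, the repressor whose promoter is printed above. Control mice carried 16.4, 16.9, 5.82, 14.9 and 20.04 CPM, and the CE mice had 19.6, 13.7, 22.8, 29.4 and 10.9 CPM. Sirt2-/- mice carried 34.0, 31.5, 25.6, 66.9 and 19.96 CPM, and Sirt2-/-/CE mice 21.8, 39.1, 45.5, 28.6 and 21.5 CPM. All but 1 of the Sirt2-/- mice lay above the highest Control mouse, the exception being replicate 15, which nearly equalled Control replicate 5. The means were 14.8 ± 5.37 CPM in Control, 19.3 ± 7.33 in CE, 35.6 ± 18.3 in Sirt2-/- and 31.3 ± 10.7 in Sirt2-/-/CE (SD, n = 5 each). In the edgeR fit Nr0b2 had the largest log2 fold change of the 10 genes over the 5 comparisons, 1.26 ± 0.35 in Sirt2-/- against Control (SE; 95% interval 0.53 to 1.99), a ratio of means of 2.40, with an unadjusted p of 0.0018 and an adjusted p of 0.0811 by edgeR. In Sirt2-/-/CE against CE it was 0.70 ± 0.35 (-0.027 to 1.42; edgeR unadjusted p = 0.058, adjusted p = 0.824), and each of the 5 Sirt2-/-/CE mice exceeded the CE mean. CE did not move it beyond the spread, at 0.38 ± 0.35 against Control (-0.34 to 1.10; edgeR adjusted p = 0.770) and -0.18 ± 0.35 between the knockout groups (-0.90 to 0.54; edgeR adjusted p = 0.973), and the interaction was -0.57 ± 0.49 (-1.59 to 0.46; edgeR adjusted p = 0.812). The interaction was -0.033 by limma voom with quality weights (adjusted p = 0.985) and -0.21 without Sirt2-/- replicate 14 (edgeR adjusted p = 0.917), and without 1 mouse it ranged from -0.74 to -0.21.

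The call of Nr0b2 in Sirt2-/- against Control depended on the method, while its direction did not. DESeq2 (adjusted p = 0.0141), limma voom with quality weights (adjusted p = 0.0306) and edgeR with scaling by library size only (adjusted p = 0.0492) placed it below 0.05. The other 7 alternatives and the removal of any 1 mouse left it above, with log2 fold changes from 0.90 without Sirt2-/- replicate 14 to 1.41 without Sirt2-/- replicate 15. Without Control replicate 3 the log2 fold change was 1.05 (edgeR adjusted p = 0.195). With the clock score as a covariate it was 1.00 (edgeR adjusted p = 0.539), and without the 4 mice whose score was below 0 it was 1.04 (edgeR adjusted p = 0.419), in a comparison of 3 Sirt2-/- with 5 Control mice. Of other cell types, the summed Kupffer cell markers Clec4f, Cd5l and Vsig4 (3 of 4 listed) were 74.0 to 249.2 CPM in Control and 156 to 292 CPM in Sirt2-/-, and the summed cholangiocyte markers Spp1, Sox9, Epcam, Krt19 and Krt7 (5 of 5) were 37.5 to 76.8 CPM in Control and 28.5 to 43.5 CPM in Sirt2-/-. Spp1 made up most of the cholangiocyte sum, with a median of 33.8 CPM over the 20 mice. The medians of Sox9, Epcam, Krt19 and Krt7 were 1.68, 0.991, 0.781 and 0.43 CPM. None of the Kupffer cell and cholangiocyte markers was at 0 in every mouse, and their part in the result was not tested. In bulk liver, fewer cells of a type and less RNA per cell cannot be told apart.

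**Figure D3:**
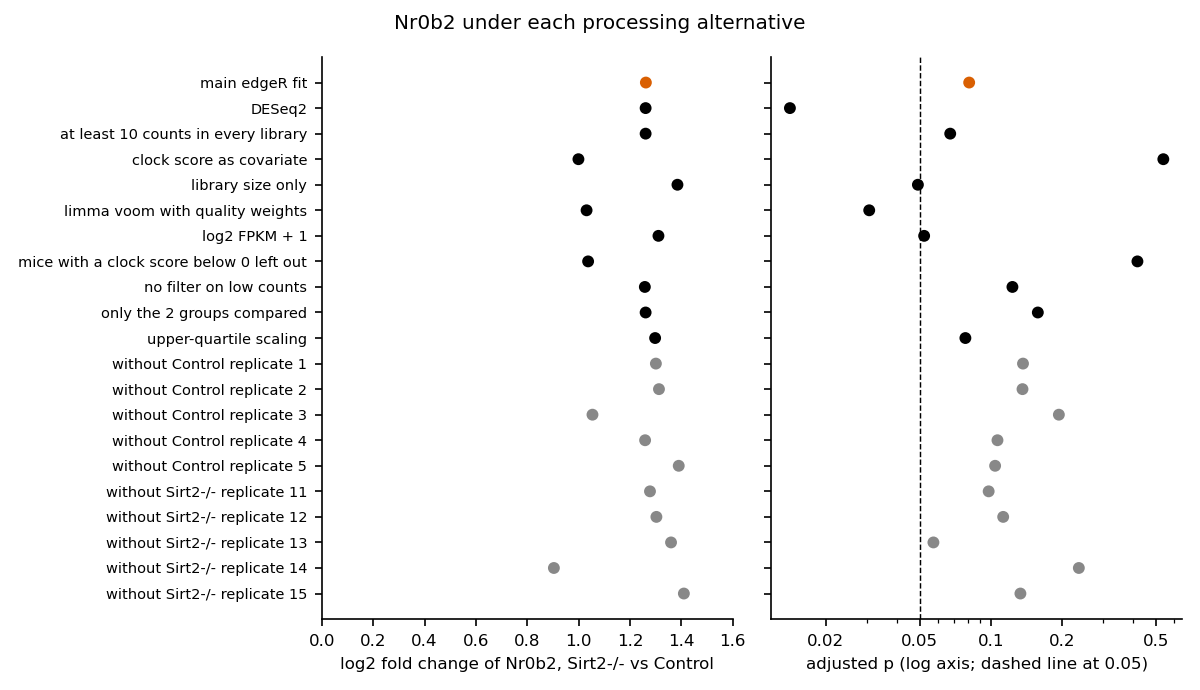
Log2 fold change of Nr0b2 in Sirt2-/- against Control (left) and its adjusted p (right, log axis, dashed line at 0.05) in the main edgeR test (orange), under 10 alternatives (black) and with each of the 10 mice left out (grey). The fold change stays above 0.9 throughout, and the adjusted p is below 0.05 under 3 alternatives.

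Slc27a5 (ENSMUSG00000030382, chr7:12988346-12998192, reverse strand) encodes the ligase that activates bile acids with coenzyme A before conjugation. Levels in Control were 793, 848, 927, 725.5 and 832 CPM, and those in CE were 772, 751, 826, 690.5 and 851 CPM. Levels in Sirt2-/- were 659, 598, 721.5, 709 and 482 CPM, and those in Sirt2-/-/CE were 891, 659, 634, 683 and 749 CPM. Every Sirt2-/- mouse was below every Control mouse, though the closest pair, at 721.5 and 725.5 CPM, nearly met. On CPM, Slc27a5 was the gene of the 10 without overlap in Sirt2-/- against Control, and 2.16% of all genes lay without overlap in that direction. The separation depended on the scale, since on FPKM Slc27a5 overlapped (289 in Control replicate 4 against 324 in Sirt2-/- replicate 14) while Nr0b2 did not (at most 16.4 in Control and at least 19.3 in Sirt2-/-). The share of all genes without overlap on FPKM was not computed. For Slc27a5 the log2 fold change was -0.38 ± 0.13 (SE; 95% interval -0.65 to -0.11; edgeR unadjusted p = 0.0087, adjusted p = 0.161), from 825 ± 73.8 to 634 ± 97.8 CPM (SD, n = 5 each). In Sirt2-/-/CE against CE it was -0.11 ± 0.13 (-0.38 to 0.17; edgeR adjusted p = 0.966). The limma voom method with quality weights put the adjusted p for Sirt2-/- against Control at 0.0163, and the other alternatives did not place it below 0.05, with -0.24 under log2 FPKM (adjusted p = 0.194) and -0.26 with the clock score as a covariate (adjusted p = 0.798).

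Baat (ENSMUSG00000039653, chr4:49489422-49506557, reverse strand) encodes the enzyme that joins the activated bile acid to an amino acid, in mice mainly taurine. Levels in Control were 191, 201, 183, 248 and 228 CPM, and those in CE were 223, 250.3, 275, 273 and 230.5 CPM. Levels in Sirt2-/- were 215, 215, 246, 242 and 280.1 CPM, and those in Sirt2-/-/CE were 229, 207, 228, 225 and 198 CPM. All 5 CE mice lay above the Control mean of 210.2 CPM, and the groups overlapped. In CE against Control the log2 fold change was 0.25 ± 0.11 (SE; 95% interval 0.014 to 0.49; edgeR unadjusted p = 0.039, adjusted p = 0.438), whereas between the knockout groups it was -0.14 ± 0.11 (-0.38 to 0.098; edgeR adjusted p = 0.859). The difference of these 2 effects was -0.39 ± 0.16 (-0.73 to -0.056; edgeR unadjusted p = 0.0245, adjusted p = 0.528), the only interaction among the 10 genes with an unadjusted p under 0.05, and it did not pass the adjusted threshold.

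Slc10a1 (ENSMUSG00000021135, chr12:80953183-80968705, reverse strand) encodes NTCP, which takes conjugated bile acids up from blood. In Control the mice had 712, 676, 617, 521 and 545 CPM, and the CE mice had 474, 444, 530.2, 457 and 534 CPM. In Sirt2-/- they had 591, 479, 636, 601 and 561 CPM, and the Sirt2-/-/CE mice had 529, 484, 485, 519 and 631 CPM. The 2 highest CE mice stood above the lowest Control mouse and below the other 4. In CE against Control the log2 fold change was -0.33 ± 0.12 (SE; 95% interval -0.59 to -0.077; edgeR unadjusted p = 0.0134, adjusted p = 0.322), from 614 ± 82.0 to 488 ± 42.0 CPM (SD, n = 5 each). Between the knockout groups it was -0.11 ± 0.12 (-0.37 to 0.14; edgeR adjusted p = 0.921), and the interaction was 0.22 ± 0.17 (-0.14 to 0.58; edgeR adjusted p = 0.788). The limma voom method with quality weights gave an adjusted p of 0.0311 for CE against Control, and no other alternative placed it below 0.05.

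Abcb11 (ENSMUSG00000027048, chr2:69238282-69342616, reverse strand) encodes BSEP, the pump that exports bile acids across the canalicular membrane. Control mice carried 277, 427, 346, 467.5 and 268 CPM, and the CE mice had 356, 333, 303, 773 and 613 CPM. Sirt2-/- mice carried 253, 351, 326, 409 and 755 CPM, and the Sirt2-/-/CE mice had 139.5, 314, 632, 636.5 and 322 CPM. Levels above 600 CPM occurred in 5 mice, none of them Control, and 3 of the 5 had a clock score below 0 (CE replicate 9, Sirt2-/- replicate 15 and Sirt2-/-/CE replicate 19). The remaining mouse with a score below 0, Sirt2-/- replicate 14, had 409 CPM, within the Control range. The log2 fold change of Abcb11 was 0.41 ± 0.37 in CE against Control (SE; 95% interval -0.35 to 1.18; edgeR adjusted p = 0.760) and 0.23 ± 0.37 in Sirt2-/- against Control (-0.54 to 1.00; edgeR adjusted p = 0.825). With the clock score as a covariate both turned negative, to -0.099 and -0.49, and neither was called. Abcb11 shares 136 of its 5146 exon bases with the antisense gene Gm13613, which had at most 21 counts in a library.

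**Figure D4:**
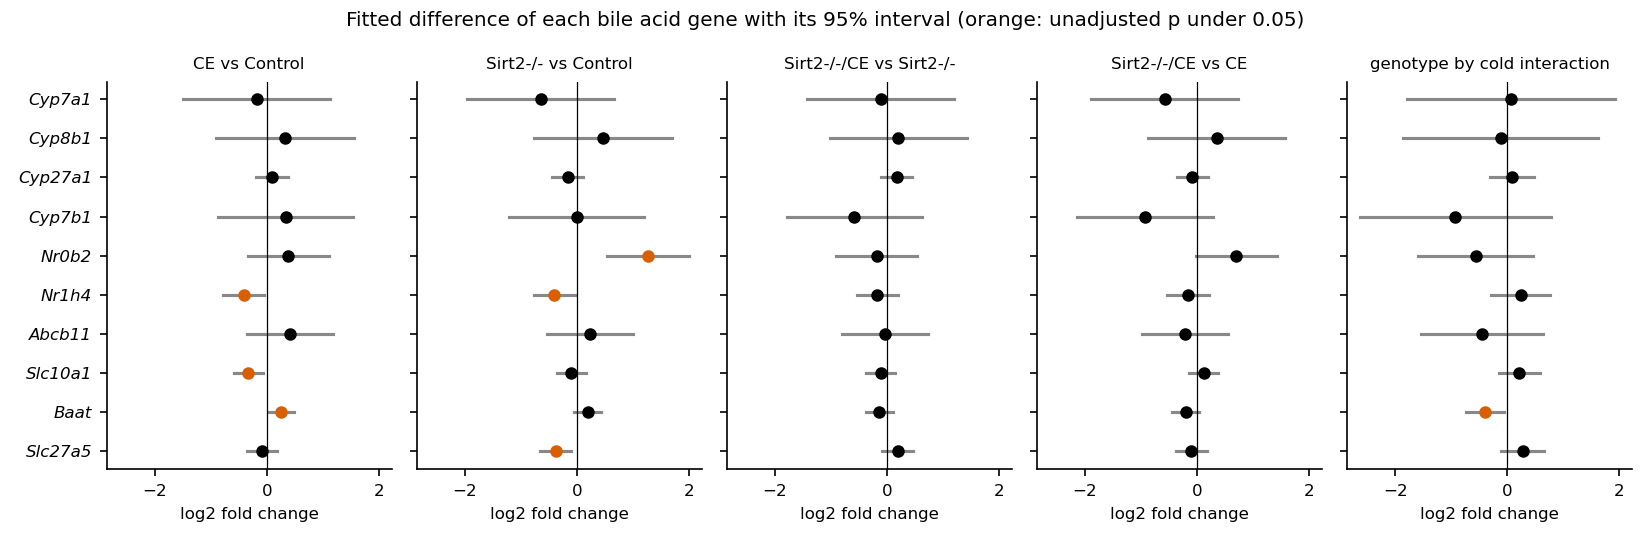
Fitted log2 fold change (point) with its 95% interval (line) of the 10 bile acid genes in each of the 5 comparisons, with orange marking an unadjusted p under 0.05. Orange points are Nr1h4, Slc10a1 and Baat in CE against Control, Nr0b2, Nr1h4 and Slc27a5 in Sirt2-/- against Control, and Baat in the interaction.

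Relations between the genes over the 20 mice were tested for 6 pairs taken from the circuit, with Pearson's r and Spearman's rho of log2 CPM and permutation tests adjusted over the 12 values. None passed an adjusted p of 0.05. The repressor Nr0b2 and its target Cyp7a1 had r = -0.08 (permutation p = 0.734, adjusted p = 0.734) and rho = -0.24 (permutation p = 0.304, adjusted p = 0.4055), while r was 0.17 after each group was centred on its mean and -0.35 without Control replicate 3 and Sirt2-/- replicate 14, the mice farthest in Nr0b2. Nr0b2 and its other target Cyp8b1 were positively related, with r = 0.58 (permutation p = 0.0112, adjusted p = 0.117) and rho = 0.42 (permutation p = 0.064, adjusted p = 0.129). Within groups r was 0.53 (permutation p = 0.0497, adjusted p = 0.109 over the 6 within-group values alone). The relation rested on Control replicate 3, which is lowest in both genes, since r was 0.26 without it, 0.25 without it and Sirt2-/- replicate 14, and 0.61 without the latter alone. Nr1h4 and Nr0b2, the receptor and its target, had r = -0.44 (permutation p = 0.049, adjusted p = 0.129) and rho = -0.49 (permutation p = 0.028, adjusted p = 0.117), with r = -0.40 without the 2 mice farthest in Nr1h4 and r = -0.15 within groups. With library size only this r was -0.26. Nr1h4 and Abcb11 had r = -0.12 (permutation p = 0.609, adjusted p = 0.664) and rho = -0.17 (permutation p = 0.458, adjusted p = 0.5495), with r = -0.17 without the 2 farthest mice and r = -0.099 within groups.

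Cyp7a1 and Cyp8b1, which share regulators, had r = 0.36 (permutation p = 0.114, adjusted p = 0.196) and rho = 0.26 (permutation p = 0.261, adjusted p = 0.392), with r = 0.35 without the 2 farthest mice and r = 0.50 within groups (adjusted p = 0.109 by permutation, over the 6 within-group values). Without Sirt2-/-/CE replicate 19 alone, r was 0.58 (adjusted p = 0.0447 by permutation, over the 6 values of r), and without Control replicate 3 alone it was 0.13 (adjusted p = 0.6425 by permutation, on the same basis). Cyp7a1 and Dbp had r = 0.48 (permutation p = 0.0292, adjusted p = 0.117) and rho = 0.43 (permutation p = 0.059, adjusted p = 0.129), with r = 0.46 within groups and r = 0.60 without Control replicate 3 and Sirt2-/-/CE replicate 19. Without Control replicate 3 alone, a mouse with 28.0 CPM of Cyp7a1 and 89.6 CPM of Dbp, r was 0.62 (adjusted p = 0.040 by permutation, over the 6 values of r). The 2 mice with the least Dbp, Sirt2-/- replicates 14 and 15 at 0.325 and 0.359 CPM, had 56.0 and 36.2 CPM of Cyp7a1, while the other 3 Sirt2-/- mice had at least 37.9 CPM of Dbp and 120.5 CPM of Cyp7a1. CE replicate 9, with 4.32 CPM of Dbp, had 202 CPM of Cyp7a1, above the Control mean. The labels give no time of collection, and its part in these values was not tested.

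**Figure D5:**
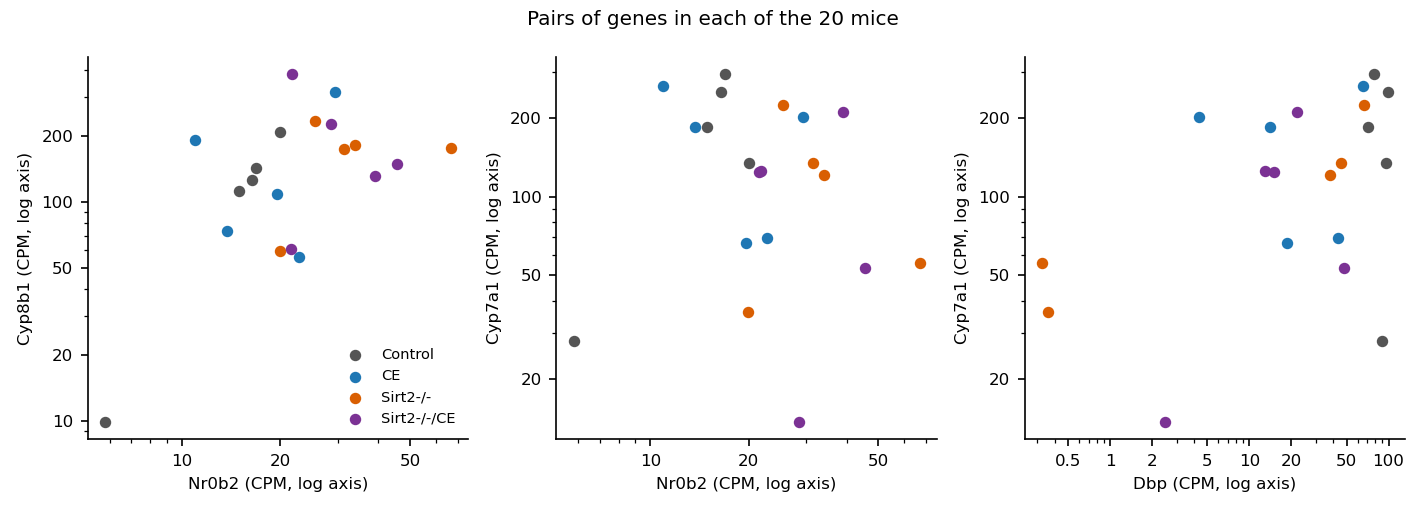
Cyp8b1 against Nr0b2 (left), Cyp7a1 against Nr0b2 (middle) and Cyp7a1 against Dbp (right) in each of the 20 mice (points, CPM on log axes), coloured by group. Control replicate 3 is alone at the lower left of the first panel, and the right panel holds 3 mice with little of both Cyp7a1 and Dbp.

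For each of the 10 genes, the 3 genes with the most similar pattern over the 20 mice were taken from 10591 genes whose mean reached 1 FPKM, as a description with no test. Cyp7b1 was closest to the major urinary protein genes Mup7 (r = 0.95), Mup17 (0.94) and Mup12 (0.92), whose counts are uncertain because the Mup genes are near copies of one another. Mup7 had 12.98 CPM in Control replicate 3 and 18.3 CPM in Sirt2-/-/CE replicate 20, the 2 mice lowest in Cyp7b1, against 374 CPM or more in the other 18. Cyp8b1 was closest to Abcb4 (r = 0.895), the exporter of phosphatidylcholine into bile, and then to the coenzyme A diphosphatase gene Nudt7 (0.79) after a predicted gene without a symbol (0.79). Slc27a5 followed Fah, an enzyme of tyrosine breakdown (0.93), Proc, the coagulation factor protein C (0.92), and Tmbim6 (0.92). Abcb11 followed Stra6l, a retinol transporter (0.93), Abca2 (0.90) and Rnf141 (0.85). Baat was closest to Hist1h2bc (0.88), St6galnac6 (0.86) and Ing4 (0.83), Cyp27a1 to Ppp2r5d (0.855), and Slc10a1 to Coro7 (0.81) and Pparg (0.78). For Cyp7a1 the closest was a predicted gene without a symbol (0.89), then Rpl5-ps1 (0.76) and Prep (0.73). The regulators had no partner as close, with Nr1h4 at 0.78 (BC024139), 0.77 (Aqp11) and 0.75 (Ripk2), and Nr0b2 at 0.75 (Ccnf), 0.73 (Ntn3) and 0.73 (Plekhb2). All points share the library and its scaling, and none of the 10 genes was among the closest of another.

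The pathway was widened by 3 lists: 14 other enzymes of synthesis (13 tested), 15 other transporters of bile acids and bile lipids (14 tested) and 15 other regulators (13 tested). In edgeR's test, 0 genes of each list had an adjusted p under 0.05 in any of the 5 comparisons. At an unadjusted p under 0.05 the enzymes numbered 1 higher and 0 lower in CE against Control and 1 higher and 3 lower in Sirt2-/- against Control, to be read against the shares of all genes given above. The transporters numbered 0 higher and 3 lower in the first and 1 higher and 3 lower in the second, and the regulators 0 and 0 in the first and 1 higher and 1 lower in the second. In Sirt2-/-/CE against Sirt2-/- 1 enzyme was higher and 1 transporter lower at that level, in Sirt2-/-/CE against CE 2 transporters were higher and 1 enzyme lower, and for the interaction 2 enzymes and 1 transporter were higher and 1 enzyme lower. DESeq2 called 4 of these genes in Sirt2-/- against Control, namely Cyp39a1, Ephx1, Akr1c6 and Akr1d1, beside 3.89% of all genes.

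Among the enzymes, Cyp39a1, the 7α-hydroxylase of 24-hydroxycholesterol, had 12.9, 7.72, 21.2, 30.8 and 17.8 CPM in Control and 46.0, 54.8, 122, 31.1 and 45.8 CPM in CE. It had 27.5, 24.7, 55.2, 139.9 and 147 CPM in Sirt2-/- and 57.1, 61.0, 26.6, 22.1 and 111 CPM in Sirt2-/-/CE. Every CE mouse was above every Control mouse, although by 31.1 against 30.8 CPM at the closest (1.75% of all genes lay without overlap in that direction), and the Sirt2-/- range overlapped the Control range. Its log2 fold change was 1.73 ± 0.54 in CE (SE; edgeR adjusted p = 0.241) and 2.13 ± 0.55 in Sirt2-/- (edgeR adjusted p = 0.0638), each against Control. Without the 4 mice whose clock score was below 0, it was 0.99 in Sirt2-/- (edgeR adjusted p = 0.628), and 2 of the 3 highest mice, Sirt2-/- replicates 14 and 15, are among those 4. The other 2 of the 4, CE replicate 9 at 31.1 CPM and Sirt2-/-/CE replicate 19 at 22.1 CPM, were the lowest of their groups. Akr1c6, an aldo-keto reductase that acts on steroids, was at -0.64 ± 0.19 in Sirt2-/- against Control (SE; edgeR adjusted p = 0.100; -0.39 without the 4 mice of low clock score, edgeR adjusted p = 0.599) and at 0.54 ± 0.19 in Sirt2-/-/CE against Sirt2-/- (edgeR adjusted p = 0.559), and its interaction of 0.87 was the lowest p of the list there (edgeR adjusted p = 0.395). The interaction of Cyp39a1 was -2.23 (edgeR adjusted p = 0.451). The Δ4-3-oxosteroid 5β-reductase gene Akr1d1 had 193 to 223 CPM in Control and 69.5 to 152 CPM in Sirt2-/-, without overlap (2.16% of all genes), and 112 to 306 CPM in Sirt2-/-/CE. Its log2 fold change was -0.88 ± 0.27 in Sirt2-/- against Control (SE; edgeR adjusted p = 0.113). Cyp2c70, which makes the muricholic acids of mice, was at -0.64 in Sirt2-/-/CE against CE (edgeR adjusted p = 0.778).

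Of the transporter list, Ephx1, microsomal epoxide hydrolase, which has also been assigned a role in sodium-dependent bile acid uptake, had 237, 294, 261, 265 and 349.6 CPM in Control and 360.4, 460, 528, 832.5 and 589 CPM in Sirt2-/-. The Sirt2-/-/CE mice had 549, 325, 292, 350.2 and 224.5 CPM, and the CE mice had 313, 223, 361, 214 and 227 CPM. All 5 Sirt2-/- mice exceeded all 5 Control mice (1.45% of all genes lay without overlap in that direction), and the Sirt2-/-/CE group overlapped every other group. The log2 fold change was 0.98 ± 0.24 in Sirt2-/- against Control (SE; edgeR unadjusted p = 4.87e-04, adjusted p = 0.0517) and -0.67 ± 0.23 in Sirt2-/-/CE against Sirt2-/- (edgeR adjusted p = 0.559). It was 0.68 without the 4 mice of low clock score (edgeR adjusted p = 0.453). The sterol transporter genes Abcg5 and Abcg8, whose products form 1 heterodimer, were at -0.83 ± 0.29 and -0.84 ± 0.33 in CE against Control (SE; edgeR adjusted p = 0.295 and 0.357), and Abcg5 at -0.78 ± 0.29 in Sirt2-/- against Control (edgeR adjusted p = 0.208). Control replicate 3 weighed on all 3 values, which without it were -0.42 and -0.53 in CE and -0.37 in Sirt2-/-. In Sirt2-/-/CE against CE the 2 lowest p-values of the list were those of the basolateral exporters Abcc3 (0.42 ± 0.17, edgeR adjusted p = 0.678) and Abcc4 (0.97 ± 0.44, edgeR adjusted p = 0.778).

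No regulator of the list was called by edgeR. Mafg, a repressor of bile acid synthesis genes that FXR induces, was at 0.37 ± 0.15 in Sirt2-/- against Control (SE; edgeR adjusted p = 0.2565), with no overlap between the groups (1.45% of all genes), and at 0.30 ± 0.15 in CE against Control (edgeR adjusted p = 0.4985). Fgfr4, the receptor for the ileal hormone FGF15, was at -0.34 ± 0.16 in Sirt2-/- against Control (edgeR adjusted p = 0.322), while voom gave -0.60 (adjusted p = 0.0326) and log2 FPKM -0.18 (adjusted p = 0.466). Nr5a2, which encodes LRH-1, was at 0.41 ± 0.22 in CE against Control (edgeR adjusted p = 0.530) and at -0.29 ± 0.22 in Sirt2-/-/CE against CE (edgeR adjusted p = 0.935). Named as the lowest p-values of their lists, none with an adjusted p under 0.05, were also the uptake transporter Slco1a4 (0.69 in Sirt2-/-/CE against Sirt2-/- and 1.14 in the interaction), the thioesterase Acot8 (0.29 in Sirt2-/-/CE against CE), the oxysterol receptor Nr1h3 (0.18 in Sirt2-/-/CE against Sirt2-/-) and the coactivator Ppargc1a (-1.13 in the interaction), each as a log2 fold change. A single mouse carried much of each, since Slco1a4 was 0.15 and 0.59 without Sirt2-/-/CE replicate 20, Acot8 was 0.10 and Nr1h3 was 0.037 without Sirt2-/-/CE replicate 16, and Ppargc1a was -0.080 without Sirt2-/- replicate 11.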

How the data were processed

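Per the labels, messenger RNA was enriched on oligo(dT) beads from liver tissue and copied with random hexamers, and the study used 20 mg of tissue and an Illumina NovaSeq instrument. The authors deposited 1 table of read counts per gene and mouse, without normalization, and an FPKM value beside each count. The build in the submitters' processing notes is mm10, and the aligner, counter and its handling of strand are not given in the sources used here. Of the lines of the table, 9 name no gene and were left out, and 0 columns of values were left over. Depth differed by 1.5 times between the shallowest and the deepest library, and no 2 libraries agreed within sampling noise.

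The 10 genes, the 3 further lists, the tests and the alternatives were chosen with earlier results of these data known, and the removal of the 4 mice of low clock score was added after the data were seen. Counts were analysed in R 4.3.3 with edgeR 4.0.16 (TMM scaling, filterByExpr on groups, minimum count 10 and minimum total 15, quasi-likelihood test, 1 fit of all 20 libraries) and adjusted by Benjamini-Hochberg over the 15616 genes kept. Cold was compared within each genotype and genotype within each temperature, and the interaction was tested. Alternatives were DESeq2 1.42.0, upper-quartile scaling, library size only, no filter, at least 10 counts in every library, only the 2 groups compared, voom with quality weights and log2(FPKM + 1) in limma 3.58.1, the clock score as a covariate, values centred on group means, and each mouse left out. The clock score took Dbp, Tef, Per3, Ciart and Nr1d2 against Arntl, Npas2 and Clock. Correlations used log2 CPM with a prior count of 2 and 100000 permutations, two-sided. The scripts were tested on simulated data.

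By rule, the 10 genes and Sirt2 are named in any case, and of each further list the genes past the threshold or, where there are none, the 2 with the lowest p in each comparison. The 3 genes closest in pattern are named for each of the 10, apart from some of lower rank. Ch25h, Slc51a, Gpbar1 and Vdr fell to the filter. Positions come from GENCODE vM21 on GRCm38, and 95% identity over 150 bases, searched with BLAST 2.17.0, linked none of the 10 genes to another gene.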

Additional observations from a re-analysis of the deposited data

Results flagged for a closer look

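A test for a single mouse far from the other 4 of its group (Dixon's ratio of the gap to the range on log2 CPM, at its 95% critical value) was made for the 10 genes in 4 groups. It singled out 4 of 40 cases, where chance gives about 1 in 20, and each was a low value. Control replicate 3 was low in Cyp8b1, at 9.92 CPM (ratio 0.796), and in Nr0b2, at 5.82 CPM (ratio 0.762). Sirt2-/- replicate 15 was low in Cyp8b1, at 59.3 CPM (ratio 0.783). CE replicate 10 was low in Cyp7b1, at 94.6 CPM against 243 to 267 CPM in the other 4 CE mice (ratio 0.91). Control replicate 3 also had the lowest level of the 20 mice for Cyp27a1 and Baat and the highest for Slc27a5, while its Dbp, at 89.6 CPM, lay within the range of the other Control mice.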

How the results depend on the processing

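Of 490 values of the 10 genes under alternatives, 454 kept their direction and their side of the threshold, 30 changed direction and 6 newly passed, and 36 of 600 values without 1 mouse changed direction. In 31 of the 50 combinations of gene and comparison the direction never changed. The reversals lay in Cyp7a1, Cyp8b1, Cyp27a1, Cyp7b1, Abcb11, Slc10a1, Slc27a5 and Nr0b2, none of them in a value called under the alternative, and their cause was not tested. No value was computed at another depth.

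Of the 10 genes, limma voom called 1 (Slc10a1) in CE against Control and 3 (Nr0b2, Nr1h4 and Slc27a5) in Sirt2-/- against Control, where DESeq2 and library size only each called 1 (Nr0b2); the same methods called 3.46%, 5.8%, 3.89% and 2.68% of all genes there. Of the further lists, voom called 1 (Cyp39a1) in CE against Control. In Sirt2-/- against Control, DESeq2 called 4, voom 5, library size only 2 (Cyp39a1 and Ephx1), and at least 10 counts in every library and log2 FPKM 1 each (Ephx1). The last 2 settings called 209 of 12267 and 329 of 15616 genes. Without 1 mouse it was 0 to 2 of the listed genes, the 2 being Cyp39a1 and Ephx1 without Sirt2-/- replicate 11 or 13. There 128 of 15841 and 375 of 15886 genes were called.

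With the clock score as a covariate, the log2 fold changes that reversed were Cyp7a1 0.50, Abcb11 -0.099 and Slc27a5 0.0021 in CE against Control, Cyp7b1 0.11 and Abcb11 -0.49 in Sirt2-/- against Control, Abcb11 0.067 in Sirt2-/-/CE against Sirt2-/-, and Cyp7a1 -0.68, Cyp8b1 0.016 and Abcb11 0.17 in the interaction. Under voom they were Cyp7b1 0.59 in Sirt2-/- against Control, Cyp8b1 -0.066, Nr0b2 0.15 and Abcb11 0.51 in Sirt2-/-/CE against Sirt2-/-, Abcb11 0.15 in Sirt2-/-/CE against CE, and Cyp7a1 -0.86, Cyp27a1 -0.00021 and Abcb11 0.14 in the interaction. Under library size only they were Cyp7b1 0.13 and Slc10a1 0.034 in Sirt2-/- against Control and Cyp27a1 0.010 in Sirt2-/-/CE against CE. Under log2 FPKM they were Cyp7b1 0.45 and Slc10a1 0.053 in Sirt2-/- against Control and Cyp7a1 -0.29 in the interaction. Without the 4 mice of low clock score they were Cyp8b1 -0.13 in CE against Control, Cyp7b1 0.31 and Abcb11 -0.20 in Sirt2-/- against Control, Cyp8b1 -0.14, Nr0b2 0.061 and Abcb11 0.17 in Sirt2-/-/CE against Sirt2-/-, and Cyp7a1 -0.057 in the interaction.

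Without 1 mouse the ranges that crossed 0 were, in CE against Control, Cyp7a1 -0.46 to 0.073, Cyp8b1 -0.15 to 0.61 and Cyp27a1 -0.0015 to 0.16. In Sirt2-/- against Control they were Cyp7b1 -0.32 to 0.34 and Abcb11 -0.095 to 0.37. In Sirt2-/-/CE against Sirt2-/- they were Cyp7a1 -0.55 to 0.28, Cyp8b1 -0.22 to 0.44, Nr0b2 -0.36 to 0.17 and Abcb11 -0.25 to 0.28. In Sirt2-/-/CE against CE they were Cyp8b1 -0.075 to 0.82 and Abcb11 -0.43 to 0.026, and in the interaction Cyp7a1 -0.37 to 0.46 and Cyp8b1 -0.53 to 0.35.

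The correlation of Nr0b2 and Cyp7a1 was 0.165 with values centred on group means and -0.41 to 0.012 without 1 mouse. That of Nr0b2 and Cyp8b1 had an adjusted p of 0.0673 by permutation when adjusted over the 6 values of r, and on that basis passed with library size only (0.61, adjusted p = 0.0396), with log2 FPKM (0.59, adjusted p = 0.0484) and without CE replicate 10, Sirt2-/-/CE replicate 16 or Sirt2-/-/CE replicate 19 (adjusted p = 0.0322, 0.0466 and 0.0448). It was 0.25 to 0.65 without 1 mouse. Without 1 mouse, that of Cyp7a1 and Cyp8b1 was 0.13 to 0.58 and that of Cyp7a1 and Dbp 0.40 to 0.62. That of Nr1h4 and Nr0b2 was -0.26 with library size only and with log2 FPKM.

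Over all genes, the 139 called in Sirt2-/- against Control (60 higher and 79 lower) became 607 by DESeq2, 906 by voom, 419 with library size only (330 higher and 89 lower, with the median of all genes at 0.16), 329 with log2 FPKM (234 higher and 95 lower), 209 with at least 10 counts in every library, 35 without a filter, 29 with only the 2 groups, 0 with the clock covariate, 0 without the 4 mice and 5 to 375 without 1 mouse, the 375 being without Sirt2-/- replicate 13. Sirt2 itself, with an adjusted p of 0.0145 in the main edgeR test, was thus not called with the clock covariate or without the 4 mice. Clock scores were 4.61 to 6.64 in Control and -3.21 to 5.44 in Sirt2-/-, so score and genotype were partly aligned. In CE against Control 1 gene became 169 by DESeq2, 540 by voom and 0 to 68 without 1 mouse. DESeq2 called 7 in Sirt2-/-/CE against Sirt2-/-, 31 in Sirt2-/-/CE against CE and 41 for the interaction. No paired analysis was possible because the replicate numbers run from 1 to 20 and no 2 groups share one.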

Other observations

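Slc10a2, the apical sodium-dependent bile acid transporter of ileum and cholangiocytes, was on the list of ileal markers and is described because of its values. It had 6.995, 9.36, 18.4, 18.8 and 6.20 CPM in Control and 12.5, 21.3, 11.7, 9.85 and 13.8 CPM in CE, against 8.45, 6.03, 2.08, 0.55 and 1.03 CPM in Sirt2-/- and 0.60, 11.1, 3.31, 2.32 and 1.64 CPM in Sirt2-/-/CE. The 5 mice of each knockout group lay below the mean of their WT counterpart, and the groups overlapped. The log2 fold change was -1.72 ± 0.68 in Sirt2-/- against Control (SE; edgeR unadjusted p = 0.0195, adjusted p = 0.226) and -1.86 ± 0.68 in Sirt2-/-/CE against CE (edgeR unadjusted p = 0.0125, adjusted p = 0.617), so neither passed the adjusted threshold. The summed cholangiocyte markers were also lower in the knockout groups by median. The medians were 50.5 CPM in Control, 47.1 in CE, 32.5 in Sirt2-/- and 29.9 in Sirt2-/-/CE. Krt19, Krt7 and Epcam reached at most 1.43, 1.21 and 2.01 CPM in any mouse, so the sum mainly follows Spp1. The part of these markers in the values of Slc10a2 was not tested.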
